A study of Mus musculus with 6 samples.

Results

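The CD300 receptors are a family of immunoglobulin-domain proteins on the surface of myeloid cells. The 6 genes described here, *Cd300a*, *Cd300e*, *Cd300lb*, *Cd300ld*, *Cd300lf* and *Cd300lg*, were selected by family name with results of the genotype contrast already known, so their values are given as a description, without p-values, and where one passed the limits used for calls this describes its value and is not a test of it. They are 6 of the 24445 genes in the deposited count table, and 5 of them were among the 12023 genes with enough counts to be tested. *Cd300e* was not.

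RNA was sequenced from bone marrow-derived macrophages (BMDMs) of female mice, grown for 7 d in medium with 15% L929-conditioned medium and then given IL-4 at 100 U/mL over 24 h. In the AclyM-KO group, 3 libraries, Cre expressed under the control of *Lyz2* deletes the floxed gene of ATP-citrate lyase (*Acly*), the enzyme that makes cytosolic acetyl-CoA from citrate. The Ctrl group, also 3 libraries, came from Acly fl/fl littermates, so both groups carried the floxed gene and both received IL-4. This Cre acts in cells of the myeloid lineage, and deletion need not be complete in every cell. The statistics section of the study calls the replicates biological and a figure legend calls them technical replicates of pooled mice, so p-values here measure the spread between libraries only. Each library held 12151975 to 15587283 counts. *Acly* itself checked the labels. In CPM, counts scaled to a common library size after TMM normalization, it stood at 332, 321 and 350 in Ctrl and 146, 134 and 136 in AclyM-KO, and the AclyM-KO mean was 41.4% of the Ctrl mean.

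CD300 receptors come in opposing pairs that share similar extracellular domains and bind lipids such as phosphatidylserine, phosphatidylethanolamine and ceramide on dying cells or lipoproteins. CD300a and CD300lf carry long tails with inhibitory ITIM motifs that recruit the phosphatases SHP-1 and SHP-2. CD300lb, CD300ld and CD300e have short tails and signal through the ITAM adaptors DAP12 or FcRγ, and CD300lg (nepmucin) is best known from endothelial cells. In macrophages these receptors tune the uptake of dying cells and the release of cytokines.

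Of the 6 genes, 5 lie in one cluster on chromosome 11, chr11:114889152-115135372 of the mouse build GRCm38, which is 0.246 Mb long. *Cd300a* stands at one end on the plus strand, and *Cd300lb*, *Cd300ld*, *Cd300e* and *Cd300lf* follow on the minus strand. *Cd300lg* (chr11:102041511-102055617) lies apart, 12.8 Mb from the cluster. *Acly* (chr11:100476352-100528000) is on the same chromosome, 1.51 Mb from *Cd300lg*.

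Promoter sequences of the 4 well-expressed members are shown, because they differ in whether and where they hold one short motif of macrophage promoters. They are RefSeq sequences of build GRCm38.p6, read 5′ to 3′ on the strand of the gene, with 250 bases before and 50 after the annotated start. For *Cd300lf* and *Cd300a*, and for some Cd300 genes not shown, this start lies inside the gene span and not at its outer end. Positions given below refer to this start. Capitals mark GAGGAA or its reverse complement TTCCTC, a core of sites bound by PU.1, the transcription factor that specifies macrophages.
*Cd300lf*, chr11:115133943-115134242, minus strand: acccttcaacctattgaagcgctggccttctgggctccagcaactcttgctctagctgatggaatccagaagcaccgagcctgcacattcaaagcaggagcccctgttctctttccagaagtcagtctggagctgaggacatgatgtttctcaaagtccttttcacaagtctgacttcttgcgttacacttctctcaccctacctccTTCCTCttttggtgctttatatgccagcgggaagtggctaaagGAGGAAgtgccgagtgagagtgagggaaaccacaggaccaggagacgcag
*Cd300ld*, chr11:114989837-114990136, minus strand: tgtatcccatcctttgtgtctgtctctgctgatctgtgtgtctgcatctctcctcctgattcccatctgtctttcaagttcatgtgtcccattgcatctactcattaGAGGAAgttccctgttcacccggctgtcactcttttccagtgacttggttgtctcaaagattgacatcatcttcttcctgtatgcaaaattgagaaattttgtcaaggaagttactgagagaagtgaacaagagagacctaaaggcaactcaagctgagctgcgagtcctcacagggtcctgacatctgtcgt
*Cd300a*, chr11:114889791-114890090, plus strand: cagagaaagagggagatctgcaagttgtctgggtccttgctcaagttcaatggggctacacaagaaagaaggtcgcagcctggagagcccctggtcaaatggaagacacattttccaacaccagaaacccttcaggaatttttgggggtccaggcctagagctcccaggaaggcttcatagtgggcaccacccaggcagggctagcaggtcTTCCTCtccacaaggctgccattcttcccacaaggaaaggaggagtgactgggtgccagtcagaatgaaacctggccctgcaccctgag
*Cd300lb*, chr11:114934322-114934621, minus strand: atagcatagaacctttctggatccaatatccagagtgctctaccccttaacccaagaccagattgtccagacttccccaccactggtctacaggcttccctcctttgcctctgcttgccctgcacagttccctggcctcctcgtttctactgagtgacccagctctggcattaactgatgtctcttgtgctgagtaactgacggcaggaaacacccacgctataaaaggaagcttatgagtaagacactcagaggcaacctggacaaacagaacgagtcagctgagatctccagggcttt

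The *Cd300lf* sequence holds the motif on each strand, 43 bases before the start and at the start itself. *Cd300ld* holds it 143 bases before the start, *Cd300a* 39 bases before, and *Cd300lb* and *Cd300e* do not hold it. *Cd300lg* was not among the 10 of 11 Cd300 genes matched to a promoter. Thus 3 of 5 member promoters and 7 of 10 of all Cd300 promoters held the PU.1 letters, against 28.3% of all 32851 promoters of this length. The 7 are not independent, since *Cd300ld3*, *Cd300ld4* and *Cd300ld5* are near-copies (99.5% to 99.9% identical in coding sequence) with the motif at the same position. On both strands, the C/EBP letters TTGCNNAA were found in *Cd300a* alone (10.8% of all promoters), and neither the STAT6 motif, TTC and GAA with 4 bases between (6.95% of all), nor the AP-1 letters TGANTCA (7.81% of all) were found in any member. These matches describe letters and not binding.

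Before the values, the way reads were counted matters for this cluster. The deposited counts behaved as counts over the whole span of a transcript, introns included and on either strand. The gene *Rab37*, a small GTPase of secretory vesicles, lies on the plus strand, and its long transcript (chr11:115091431-115162236) spans *Cd300lf* on the minus strand without sharing an exon. That transcript was at 1198, 990 and 1024 counts in Ctrl against 733, 925 and 698 in AclyM-KO. *Cd300lf* followed it closely, at 1194, 980 and 1018 in Ctrl against 726, 913 and 686 in AclyM-KO. The difference was 4 to 12 counts in every library. The short *Rab37* transcript (chr11:115154157-115162236), which does not reach *Cd300lf*, was at 2, 5 and 6 counts in Ctrl against 4, 8 and 7 in AclyM-KO, so nearly all counts listed for *Rab37* were those of *Cd300lf*. No other gene of the table overlapped the span of any of the 6 members.

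**Figure D1:**
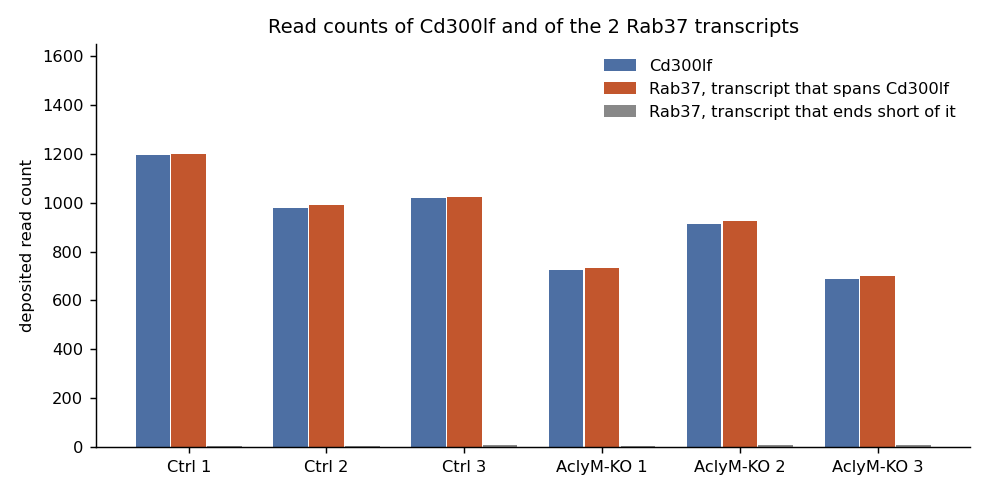
Deposited read counts in each of the 6 libraries for *Cd300lf* and for the long and the short *Rab37* transcript. The bars of *Cd300lf* and of the long transcript differ by at most 12 counts, while the short transcript stays at 8 counts or fewer.

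The members also resemble each other in sequence, which bears on how well reads can be told apart. Over aligned coding bases, *Cd300ld* and *Cd300lf*, one short-tailed and one inhibitory, were 83.8% identical, whereas *Cd300a* and *Cd300lb* were 65.4% identical. Of all words of 50 bases in the *Cd300lf* transcript, 6.7% occurred in another gene, 5.18% in *Cd300ld*. The share was 3.89% for *Cd300ld*, 3.59% for *Cd300a*, 0.149% for *Cd300lg* and 0.0% for *Cd300lb* and *Cd300e*. Most of each member's sequence was thus its own, and how multiply mapped reads were treated is not given in the sources used here.

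The 4 well-expressed members were lower in AclyM-KO than in Ctrl, at 65.2% to 89.1% of the Ctrl mean, and *Cd300lg*, the scarce one, was 4.35-fold higher. The 2 inhibitory receptors are given first. *Cd300a*, a receptor for phosphatidylserine and phosphatidylethanolamine, stood at 240, 217 and 236 CPM in Ctrl and at 186, 189 and 186 CPM in AclyM-KO. The groups did not overlap, and the Ctrl libraries spread more (231 ± 12.6, mean ± SD, n = 3) than the AclyM-KO libraries (187 ± 1.99, n = 3). The log2 fold change was -0.30 (SE 0.0511).

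*Cd300lf*, the ceramide-binding inhibitory receptor that also serves as the entry receptor of murine norovirus, had 80.7, 80.2 and 77.3 CPM in Ctrl and 49.5, 58.7 and 47.0 CPM in AclyM-KO. Every AclyM-KO library lay below every Ctrl library, and the second AclyM-KO library was the closest to Ctrl. The mean fell from 79.4 ± 1.84 to 51.8 ± 6.18 CPM (SD, n = 3 each), to 65.2% of Ctrl, with a log2 fold change of -0.62 (SE 0.0706). Without the third AclyM-KO library the log2 fold change was -0.55, short of the limit of 0.58 used for calls.

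Among the receptors that signal through adaptors, *Cd300lb*, a DAP12-coupled receptor, was the most even. It had 530, 530 and 528 CPM in Ctrl and 475, 469 and 471 CPM in AclyM-KO. The gap between the groups was small beside the level but wide beside the spread within them (529 ± 0.983 and 472 ± 2.68 CPM, SD, n = 3 each). The log2 fold change was -0.17 (SE 0.041).

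*Cd300ld*, which pairs with FcRγ, had 431, 474 and 452 CPM in Ctrl and 323, 320 and 306 CPM in AclyM-KO. No libraries of the 2 groups overlapped, and the mean went from 452 ± 21.5 to 316 ± 9.21 CPM (SD, n = 3 each), 69.9% of Ctrl. Its log2 fold change of -0.52 (SE 0.0487) was the nearest one short of the call limit, as that of *Cd300lf* was the nearest one past it.

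*Cd300e*, a DAP12-coupled receptor of monocytes, was close to absent at this depth. Its libraries held 1, 2 and 0 counts in Ctrl against 4, 4 and 3 in AclyM-KO, where 3 counts correspond to 0.192 to 0.247 CPM. The ratio of the summed counts, 11 against 3, was 3.25 with an exact 95% interval of 0.858 to 18.1, which covers counting error only and includes no difference.

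*Cd300lg* was the only member with higher values in AclyM-KO among the 5 tested. Its libraries held 13, 14 and 15 counts in Ctrl (0.878, 1.15 and 1.14 CPM) against 52, 80 and 74 counts in AclyM-KO (3.55, 5.15 and 5.07 CPM). The lowest AclyM-KO library was well above the highest Ctrl library. The mean went from 1.05 ± 0.152 to 4.59 ± 0.902 CPM (SD, n = 3 each), with a log2 fold change of 2.13 (SE 0.256).

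**Figure D2:**
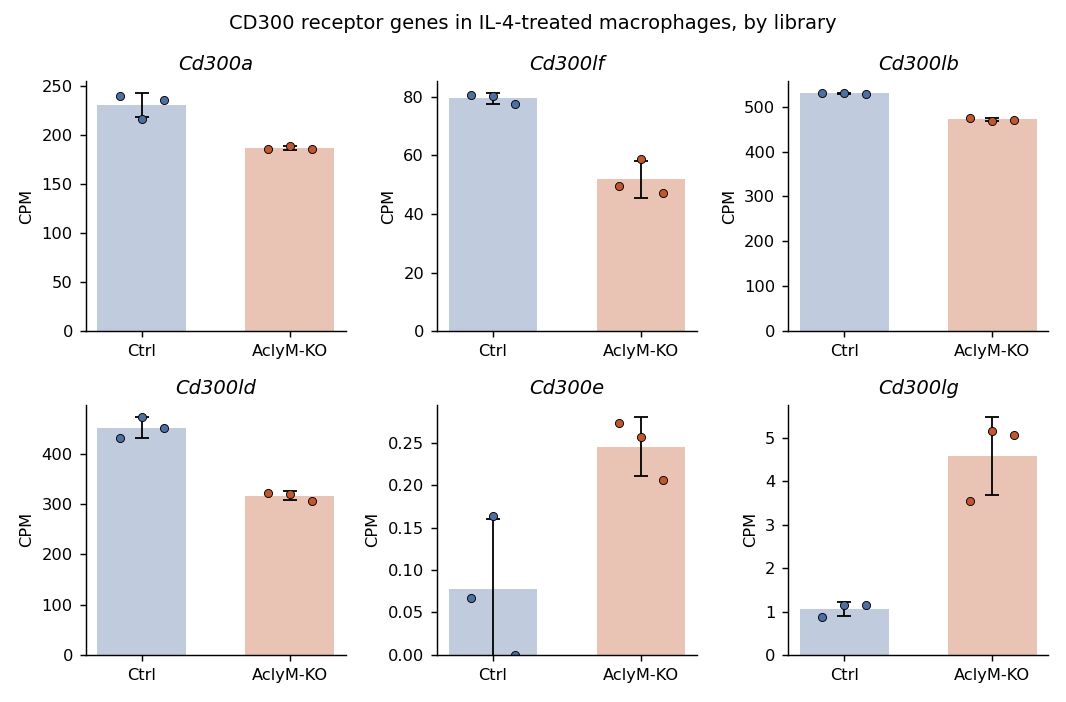
CPM of the 6 CD300 genes by library, one panel per gene with its own axis from 0. Points are libraries, bars group means and error bars SD (n = 3); *Cd300a*, *Cd300lf*, *Cd300lb* and *Cd300ld* are lower in all 3 AclyM-KO libraries, *Cd300lg* is higher, and *Cd300e* rests on 4 counts or fewer per library.

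A gene was called when edgeR's adjusted p-value was under 0.05 and its log2 fold change beyond 0.58 either way. This held for 2 of the 6 members, *Cd300lf* (lower) and *Cd300lg* (higher). Of all 12023 genes tested, 5.55% were called, 2.98% higher and 2.57% lower. Groups without overlap were seen in 5 of 5 tested members, 4 lower and 1 higher, while 19.8% of all genes tested were lower without overlap and 20.5% higher. Because the members were selected on this contrast, nothing is read from these counts. Fewer cells that express a gene and less RNA per cell cannot be told apart in bulk libraries such as these.

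Levels of different genes were compared per kb of transcript, and the members covered a wide range. The lengths are those of spliced transcripts while the counts behaved as if introns were included, so these levels and the shares made from them are approximate. *Cd300lb* (184 ± 0.341 CPM per kb in Ctrl, 164 ± 0.929 in AclyM-KO) and *Cd300ld* (171 ± 8.12 and 119 ± 3.48) were at the 97.5th and 97.2nd percentile of all genes tested in Ctrl. *Cd300a* (49.7 ± 2.71 and 40.3 ± 0.429 CPM per kb) and *Cd300lf* (42.1 ± 0.975 and 27.5 ± 3.28) came next, and *Cd300lg* (0.385 ± 0.0556 and 1.68 ± 0.33) was at the 4.28th percentile in Ctrl and the 16.9th in AclyM-KO. *Cd300e* was lowest, at 0.0369 ± 0.0394 and 0.117 ± 0.0169 CPM per kb.

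The order of the members by this level was the same in both groups. Neighbours in it did not overlap, but *Cd300lb* and *Cd300ld* were close in Ctrl, at 183 to 184 against 163 to 179 CPM per kb over libraries. The summed level of the 6 members was 442, 453 and 447 CPM per kb in Ctrl and 355, 358 and 346 in AclyM-KO. As shares of that sum, *Cd300lb* took 41.1% ± 0.503 in Ctrl and 46.4% ± 0.856 in AclyM-KO, *Cd300ld* 38.2% ± 1.34 and 33.9% ± 0.522, and *Cd300lf* 9.42% ± 0.259 and 7.78% ± 0.814. The share of *Cd300a* was nearly level, at 11.1% ± 0.737 and 11.4% ± 0.15. These shares cover the 6 members alone and leave out *Cd300c2*, which ranked 3 among all Cd300 genes at 120 ± 5.28 CPM per kb in Ctrl and 91.7 ± 3.23 in AclyM-KO.

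**Figure D3:**
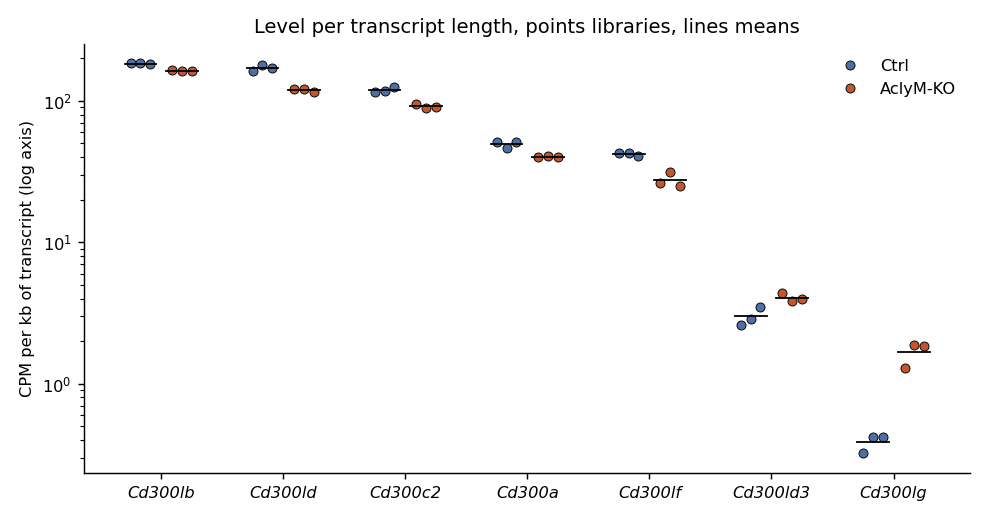
Level in CPM per kb of transcript, on a log axis, for the 7 Cd300 genes that were tested. Points are libraries and lines group means; *Cd300lb*, *Cd300ld*, *Cd300c2*, *Cd300a* and *Cd300lf* lie above 20 CPM per kb in every library, and *Cd300ld3* and *Cd300lg* below 5.

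The cluster holds further Cd300 genes that the 6 do not include, and the table lists 5 of them. *Cd300c2*, an activating receptor whose coding sequence is 81.4% identical to that of *Cd300a*, had 138, 140 and 149 CPM in Ctrl and 113, 105 and 108 CPM in AclyM-KO. It was lower in 3 of 3 AclyM-KO libraries, with a log2 fold change of -0.39 (SE 0.0522, edgeR adjusted p = 6.98e-05), which is short of the fold limit. Its promoter held the PU.1 letters 80 bases before the start, and those of *Cd300ld3*, *Cd300ld4* and *Cd300ld5* held them 187 bases before.

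*Cd300ld3* had 2.23, 2.45 and 2.96 CPM in Ctrl and 3.75, 3.28 and 3.36 CPM in AclyM-KO. The libraries did not overlap, but the difference did not pass the test (log2 fold change 0.45, 95% interval 0.037 to 0.85, edgeR adjusted p = 0.134). This gene shares 82.1% of its words of 50 bases with another gene, mainly with *Cd300ld5*, so its reads could not be placed with certainty. *Cd300ld4* and *Cd300ld5*, 99.9% identical in coding sequence, were listed with the same counts, 3, 1 and 0 in Ctrl against 8, 0 and 4 in AclyM-KO, and cannot be told apart. *Cd300c* had 11 counts in Ctrl and 6 in AclyM-KO, a ratio of 0.483 with an exact 95% interval of 0.147 to 1.43. None of the 2 tested relatives was called by edgeR, DESeq2 or limma-voom, although both had an unadjusted edgeR p under 0.05, as did 36.7% of all genes tested.

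**Figure D4:**
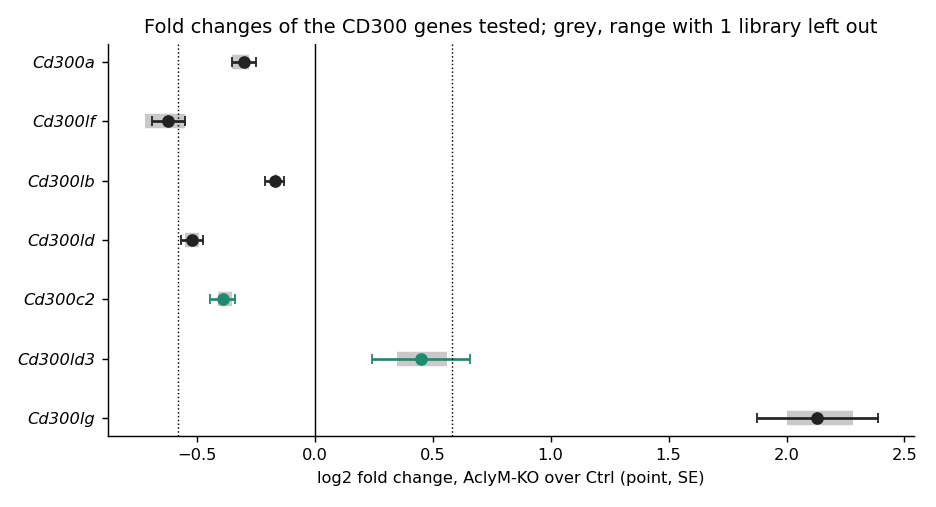
Log2 fold change (AclyM-KO over Ctrl) of the 7 Cd300 genes tested, with SE from the edgeR fit; black points are members and green points relatives in the cluster. Grey bands show the range when 1 library is left out, and dotted lines the limit of 0.58; the band of *Cd300lf* (-0.72 to -0.55) crosses the limit and that of *Cd300lg* (2.0 to 2.28) lies far beyond it.

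Genes around the family were examined next. Within 500 kb of the cluster 24 other genes were tested, and their median log2 fold change was 0.11, against 0.0014 for all genes tested. Besides *Rab37* (-0.61, edgeR adjusted p = 1.69e-05), whose counts were those of *Cd300lf*, 1 neighbour was called. The 2 calls are 8.33% of the 24, against 5.55% of all genes tested, but that of *Rab37* repeats the call of the member *Cd300lf*. Nothing is therefore read from this share. *Rab37* lost its call without the first (-0.57) or the third AclyM-KO library (-0.54). *Hid1*, a Golgi protein of secretory cells, had 1.70 ± 0.159 CPM in Ctrl and 3.63 ± 1.41 CPM in AclyM-KO (SD, n = 3 each), with a log2 fold change of 1.09 (edgeR adjusted p = 0.0109). The first AclyM-KO library stood highest, at 5.25 CPM against 2.96 and 2.67 CPM, and without it the call was lost (0.73, adjusted p = 0.0753). The neighbours of highest CPM were *Tmem104* (log2 fold change 0.051, edgeR adjusted p = 0.444) and *Ttyh2* (-0.30, adjusted p = 3.44e-04). Of the 24 neighbours, 15 had a log2 fold change above 0 and 9 below.

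Within 500 kb of *Cd300lg*, 18 other genes were tested and had a median log2 fold change of 0.05. None was called by edgeR, DESeq2 or limma-voom, and 5 had an unadjusted edgeR p under 0.05. Among them *Grn*, the progranulin gene, had a log2 fold change of -0.048 (edgeR adjusted p = 0.307), and *Tmem106a*, a membrane protein of macrophages, was higher by 0.22 (adjusted p = 0.00157).

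Among adaptors and kinases through which the short-tailed receptors signal, small decreases were more frequent than increases. Of 24 genes, none was called by edgeR, DESeq2 or limma-voom, 12 had an unadjusted edgeR p under 0.05 (36.7% of all genes tested did), and the median log2 fold change was -0.14. With an adjusted p under 0.05 whatever the fold change, 10 were lower and 1 was higher, where 12.6% of all genes tested were lower and 12.4% higher. *Tyrobp*, which encodes DAP12, had 528, 485 and 494 CPM in Ctrl and 442, 447 and 454 CPM in AclyM-KO (log2 fold change -0.17, edgeR adjusted p = 0.0144). *Syk*, the kinase that binds phosphorylated ITAMs, was lower by a similar amount (-0.14, adjusted p = 0.0286).

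In the phosphatases and adaptors of the inhibitory arm, 7 log2 fold changes were above 0 and 7 below. None of 14 was called by edgeR, DESeq2 or limma-voom, 7 had an unadjusted edgeR p under 0.05, and the median was -0.0022. *Cblb*, a ubiquitin ligase that restrains receptor signalling, was higher by 0.16 on the log2 scale (edgeR adjusted p = 0.0362), and *Ptprc*, which encodes CD45, had a log2 fold change of -0.084 (adjusted p = 0.198).

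Other paired receptors of myeloid cells moved in both directions. Of 51 listed genes 38 were tested, and 9 were called, 4 higher and 5 lower, which is 23.7% of those tested against 5.55% of all genes (2.98% higher and 2.57% lower). DESeq2 called 8, and 7 were called without the second Ctrl, the first AclyM-KO or the third AclyM-KO library. The median was -0.042. *Siglec1*, the sialic acid receptor CD169, had 188, 211 and 198 CPM in Ctrl and 127, 106 and 122 CPM in AclyM-KO (log2 fold change -0.76, edgeR adjusted p = 8.44e-07). *Fcgr4*, an activating Fc receptor, fell by 0.67 on the log2 scale (adjusted p = 9.43e-06), *Treml2* by 0.66 (adjusted p = 2.59e-05), *Slamf9* by 0.89 (adjusted p = 9.65e-04) and *Pilra* by 0.84 (adjusted p = 0.0242). For *Pilra* a neighbouring gene within its span, *Zcwpw1*, had 36.4% as many counts, so its value is uncertain, and its call was lost without the second Ctrl library (-0.42, adjusted p = 0.115), the first AclyM-KO library (-0.78, adjusted p = 0.08) or the third (-0.79, adjusted p = 0.0808).

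The 4 that rose were C-type lectins and others. *Clec4d* rose by 0.60 on the log2 scale (edgeR adjusted p = 3.11e-06) and *Clec4e*, the receptor Mincle for mycobacterial glycolipid, by 0.70 (adjusted p = 0.00459). *Lilra6* rose by 0.99 (adjusted p = 5.91e-05) and *Cd244a* by 0.66 (adjusted p = 0.0169). Single libraries decided 3 of these calls. *Clec4d* was at 0.56 without the second Ctrl or the third AclyM-KO library, *Clec4e* at 0.47 without the second AclyM-KO library, and *Cd244a* at 0.48 without the first (adjusted p = 0.102). The abundant *Sirpa*, the receptor for CD47, was at 2650 CPM in Ctrl and 2910 CPM in AclyM-KO (0.14, adjusted p = 0.00979), and *Clec7a*, the β-glucan receptor dectin-1, had a log2 fold change of -0.034 (adjusted p = 0.535).

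Genes that make or break down the lipid ligands come next. In ceramide and sphingomyelin metabolism 28 genes were tested, 2 were called higher and none lower, a share of 7.14% near the 5.55% of all genes, and the median was 0.067. Both were scarce. *Acer2*, an alkaline ceramidase, went from 1.05 ± 0.472 to 2.93 ± 0.594 CPM (log2 fold change 1.5, edgeR adjusted p = 0.00292, SD, n = 3 each). It had 8, 18 and 15 counts in Ctrl against 35, 44 and 52 in AclyM-KO. Only in AclyM-KO did every library reach 10 counts, so the call of *Acer2* describes its value and is not a test of it. *Smpd3*, a neutral sphingomyelinase, went from 0.983 ± 0.217 to 2.37 ± 0.109 CPM (1.28, edgeR adjusted p = 0.00346, SD, n = 3 each). The abundant *Asah1*, acid ceramidase, and *Sgpl1*, the sphingosine phosphate lyase, had log2 fold changes of -0.012 (adjusted p = 0.869) and 0.089 (adjusted p = 0.107). Of 12 genes for synthesis and exposure of phosphatidylserine, none was called by edgeR, DESeq2 or limma-voom, 4 had an unadjusted edgeR p under 0.05, and the median was 0.067. The scramblase gene *Ano6* was lower (-0.38, adjusted p = 3.84e-05), and the flippase subunit *Tmem30a* had a log2 fold change of 0.082 (adjusted p = 0.268). Another gene that overlaps the span of *Tmem30a*, *Cox7a2*, had 22.2% as many counts, so the value of *Tmem30a* is uncertain.

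In the IL-4 receptor pathway, 1 of 8 genes was called, 12.5% against 5.55% of all genes tested. *Il13ra1*, a receptor chain for IL-4 and IL-13, was lower at 3.92 ± 0.709 CPM in Ctrl and 2.48 ± 0.134 CPM in AclyM-KO (log2 fold change -0.67, edgeR adjusted p = 0.0295). DESeq2 did not make this call, and it was lost on leaving out any single library except the second Ctrl library. In those removals the log2 fold change stayed about as large, at -0.7 to -0.59, while the adjusted p rose to 0.0648 to 0.101. *Jak1* had a log2 fold change of -0.11 (adjusted p = 0.0901), and *Jak2* was higher by 0.26 (adjusted p = 0.0013). The list median was -0.12.

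**Figure D5:**
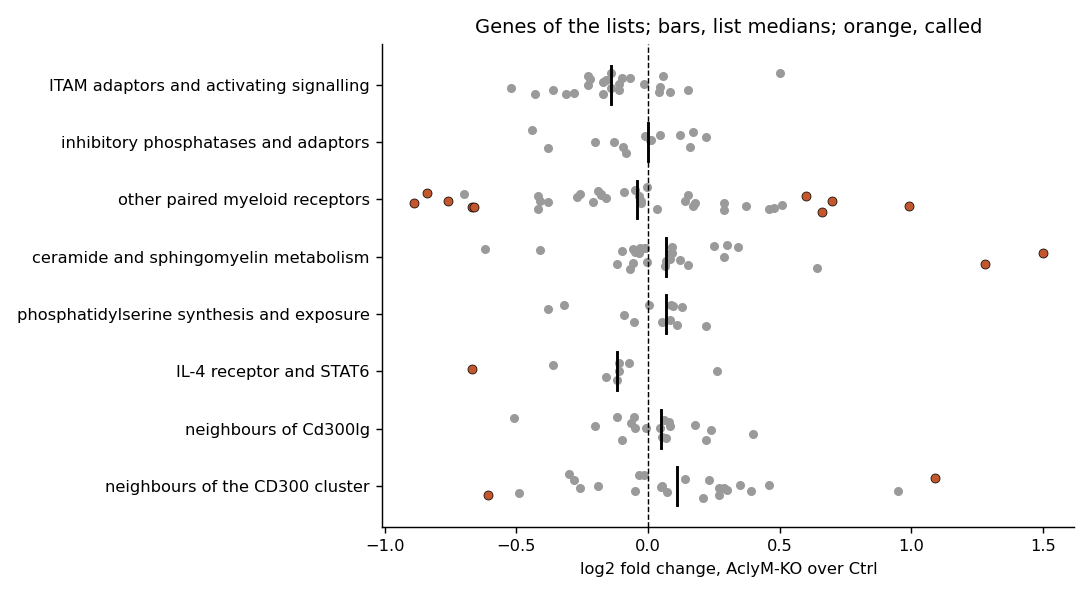
Log2 fold change (AclyM-KO over Ctrl) of each tested gene in 8 gene lists, with vertical offsets for legibility. Thick bars are list medians, orange points called genes, and the dashed line the median of all genes tested (0.0014); called genes lie on both sides among the other paired receptors (4 higher, 5 lower).

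Markers of cell types were read beside these values. Of 10 macrophage markers 9 were tested, their summed level was 19400 ± 530 CPM in Ctrl and 16600 ± 147 CPM in AclyM-KO, and *Cx3cr1* had 0 counts in every library. Most of that difference was *Lyz2* (7120, 6090 and 6570 CPM against 4000, 4220 and 4200 CPM), the lysozyme gene whose control drives Cre. *Mertk*, a receptor for dying cells, was lower as well (log2 fold change -0.73, edgeR adjusted p = 2.56e-07), and *Mrc1* had a log2 fold change of -0.027 (adjusted p = 0.655). Of the 9 tested markers, 8 had a log2 fold change below 0. *Adgre1*, which encodes F4/80, was the only one above 0, at 0.33 (adjusted p = 2.27e-05).

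As *Cd300lg* is best known from endothelium, the endothelial markers are given in full. Their sum was 882, 991 and 918 CPM in Ctrl and 1400, 1370 and 1420 CPM in AclyM-KO, nearly all of it *Vwf*, the von Willebrand factor gene (862, 970 and 898 CPM against 1380, 1360 and 1400 CPM, log2 fold change 0.60, edgeR adjusted p = 1.96e-07, and 0.56, short of the fold limit, without the first Ctrl library). *Tie1*, *Emcn*, *Esam* and *Cldn5* had at most 3 counts in every library. *Cdh5*, which encodes VE-cadherin, was at 4, 8 and 5 counts in Ctrl against 3, 8 and 5 in AclyM-KO, *Tek* at 3, 4 and 6 against 4, 4 and 7, and *Egfl7* at 2, 3 and 4 against 13, 6 and 6. *Pecam1* was lower (-0.74, adjusted p = 1.44e-04) and *Kdr* had a log2 fold change of 0.14 (adjusted p = 0.591). No gene with a sizeable share of its counts was found over the span of *Vwf*.

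The neutrophil markers summed to 18.1 ± 1.12 CPM in Ctrl and 25.9 ± 0.94 CPM in AclyM-KO, with 4 of 10 tested and *S100a9* (5.61 and 8.44 CPM) the most abundant. *S100a8* (log2 fold change 0.85, edgeR adjusted p = 0.00257) and *S100a9* (0.59, adjusted p = 0.0152, and 0.42 with adjusted p = 0.0728 without the third Ctrl library) were called, *Ngp* was not (0.37, adjusted p = 0.108), and *Ly6g* and *Elane* had at most 3 counts in every library. The mast cell and basophil markers summed to 4.6 ± 1.39 and 8.9 ± 0.777 CPM. The rise of that sum was the rise of *Kit*, at 3.19 and 7.61 CPM (log2 fold change 1.26, adjusted p = 1.65e-04), the only gene of this list that was tested. *Cpa3* (0.65 and 0.556 CPM), *Hdc* (0.5 and 0.401 CPM) and *Gata2* (0.257 and 0.335 CPM) overlapped between groups. The remaining 6 defining genes, *Mcpt4* and *Fcer1a* among them, had 0 counts in every library. The sums for dendritic cells (153 ± 18.2 and 147 ± 1.11 CPM), monocytes (430 ± 62.2 and 421 ± 7.95 CPM) and fibroblasts (562 ± 99.7 and 519 ± 13.2 CPM) overlapped between groups. Each was mostly 1 gene, *Bst2* (130 CPM in both groups), *Chil3* (415 and 405 CPM) and *Fn1* (561 and 517 CPM). The overlap of the sums thus says little of the other markers, and *Fn1* was the only fibroblast marker tested. In these lists *Cd209a* was called higher (log2 fold change 1.65, edgeR adjusted p = 0.0128) and *F13a1* lower (-0.89, adjusted p = 0.00517), both at under 6 CPM. Without the first Ctrl library *Cd209a* had a log2 fold change of 1.41 with adjusted p = 0.06. It had 3, 3 and 6 counts in Ctrl against 12, 16 and 15 in AclyM-KO. Only its AclyM-KO libraries reached 10 counts, so its call describes its value and is not a test of it. The abundant *Bst2* (adjusted p = 0.988), *Chil3* (adjusted p = 0.784) and *Fn1* (adjusted p = 0.332) did not pass. *Batf3* was lower without reaching the fold limit (-0.57, adjusted p = 0.00626), and *Ccr2* had a log2 fold change of 0.32 (adjusted p = 0.241). The sum for B and T lymphocytes was 19.2 ± 2.02 CPM in Ctrl and 12.8 ± 1.11 CPM in AclyM-KO, mostly *Cd4* (-0.57, adjusted p = 0.00243). *Cd79b* was called lower (-0.93, adjusted p = 0.0138). This call was lost without the third Ctrl, the first AclyM-KO or the third AclyM-KO library. The adjusted p was then 0.0509 to 0.0534, while the log2 fold change stayed about as large, at -0.88 to -0.87. The part of these markers in the CD300 values was not tested.

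Genes whose log2 CPM followed the 2 called members most closely over the 6 libraries are given as a description, among 8407 genes with a mean of at least 10 CPM. For *Cd300lf*, *Rab37* (Pearson r = 0.9999) shares its counts, and the next were *Cd48*, the ligand of CD244 (r = 0.997), and *Pde8b*, a phosphodiesterase (r = 0.9961). For *Cd300lg* they were *Pgghg* (r = 0.9974), *Mindy2* (r = 0.9967) and *Epas1*, which encodes HIF-2α (r = 0.9948). The sizes of change differed widely under such correlations, since *Cd48* had a log2 fold change of -0.089 and *Epas1* one of 0.72.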

How the data were processed

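RNA-seq libraries of IL-4-treated BMDMs, 3 AclyM-KO and 3 Ctrl, were analysed. Per the labels and the study's methods, the authors made stranded mRNA libraries and aligned reads to mm10 with STAR (version 2.5.2b in the submitters' processing notes, which also list CASAVA 1.8.2). The deposited values are raw read counts per RefSeq transcript, not normalized. The counting program is not given in the sources used here.

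Of 35745 rows, 35440 were named through the RefSeq table of GRCm38.p6 and 188 through GENCODE M21, and 117 without a gene (0.37% to 1.38% of counts) were left out. Isoform pairs with different exons but one span had identical counts in 93.3% of 372 pairs, against 28.7% of 4379 pairs whose spans differ by over 1000 bases. A gene that spans another one on the opposite strand without a shared exon had at least its counts in all 6 libraries in 41 of 43 pairs (at least 600 counts in all). Counts therefore include introns and both strands, while lengths for CPM per kb are those of GENCODE M21 transcripts.

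The row with the highest total was kept per gene. The main test was the quasi-likelihood test of edgeR (4.0.16, under R 4.3.3) after filterByExpr and TMM, with genotype alone in the model and p-values adjusted over all genes tested by the Benjamini-Hochberg method. The common biological coefficient of variation was 0.0588. The procedure was tested on simulated data. The study used DESeq2, run here (1.42.0) as an alternative, as were limma-voom (limma 3.58.1), glmTreat, other scalings, filters and rows, a replicate term and the removal of each library. Correlations used log2 CPM with a prior count of 2. Replicate libraries differed by more than counting noise (chi-square per gene 2.32 to 7.57), so no pair was merged as one library. Technical replicates of one RNA pool could also differ by this much.

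Members and lists were chosen with earlier results of these data known. Named are all Cd300 genes, in each list and among neighbours the called genes and the 2 of highest CPM, and the 3 genes most correlated with each called member. Besides these, *Adgre1*, *Kdr*, *Cdh5*, *Tek*, *Egfl7* and marker genes at or near 0 were named after their values were seen. Naive BMDMs and tumors were not analysed here. A called gene of the marker lists is not reported here.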

Additional observations from a re-analysis of the deposited data

How the results depend on the processing

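No direction of a tested CD300 gene turned under any of the 17 alternatives, and the log2 fold change of *Cd300lg* stayed between 2.0 and 2.28. Testing against the fold limit itself (glmTreat) reduced the calls to 77 higher and 41 lower genes. It left 1 member past the limits, since *Cd300lf* (-0.62) lost its call, and 0 calls among the other paired receptors, the ceramide genes, the IL-4 receptor genes and the neighbours of the cluster. Over the removals of 1 library, *Cd300lf* ran from -0.72 (without AclyM-KO replicate 2) to -0.55 (without AclyM-KO replicate 3), and the members past the limits from 1 (without AclyM-KO replicate 3) to 2. Calls ran from 315 to 374 higher and 271 to 317 lower, those of the IL-4 receptor list from 0 to 1 and those of the cluster neighbours from 0 (without AclyM-KO replicate 1) to 2, with 1 without AclyM-KO replicate 3. DESeq2 called 0 of the IL-4 receptor genes. Requiring at least 10 counts in every library left 1 ceramide gene called, and keeping the row with the lowest total left 1 neighbour, because the short *Rab37* transcript then stood for that gene.

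With a replicate block there were 350 genes called higher and 302 lower, and the same 2 members were past the limits. Outside the marker lists, the number of genes called per list did not change. The deviations of libraries with the same number correlated at -0.065, 0.05 and -0.031, and those with other numbers at -0.076 to 0.11. No pairing by number was seen, and with 3 libraries per group these values cannot exclude one. The order of the members per kb was the same with coding length (*Cd300lb* 689 and *Cd300ld* 679 in Ctrl). With the rows of a gene summed, which counts reads several times, *Cd300lf* (71.0) passed *Cd300a* (55.9) in Ctrl. At this depth nothing can be said of *Cd300e*, *Cd300c*, *Cd300ld4* or *Cd300ld5* beyond their counting intervals.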

Other observations

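Counting over spans reached other gene pairs as well. The counts of *B2m*, a subunit of MHC class I, were 98.9% of those listed for *Patl2*, which spans it on the opposite strand without a shared exon. The same figure was 99.1% for *Fgl2* within *Ccdc146* and 97.0% for *Sla* within *Tg*, the thyroglobulin gene. These pairs were picked after their values were seen, and whether the fold changes of the spanning genes reflect their own transcripts was not tested.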
